A study of Mus musculus with 59 samples.

Results

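The 10 genes described here encode enzymes and a transporter of inositol metabolism, some of which lithium inhibits. They were chosen by name for their place in this metabolism: Impa1, Impa2, Inpp1, Bpnt1, Isyna1, Slc5a3, Cdipt, Ip6k1, Itpk1 and Itpka. All 10 were found by gene identifier among the 18088 genes of the deposited table, and all 10 passed the filter on low values that left 17901 genes for testing. RNA was sequenced from the prefrontal cortex of 59 C57BL/6J mice taken at postnatal day 25, 30 of them heterozygous for the Dyrk1a I48X mutation (Dyrk1a+/I48X, here Het) and 29 wild type (WT). Lithium, fluoxetine or vehicle had reached the pups through maternal milk between days 3 and 24. Het lithium, Het fluoxetine, Het vehicle, WT lithium and WT vehicle mice numbered 5 females and 5 males each, and WT fluoxetine mice numbered 5 females and 4 males. No drug dose or blood level was used here. The labels name no litters or dams, and pups of a dam share its drug. All p-values therefore measure the spread between these mice, and litter and drug cannot be told apart.

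Free myo-inositol is the raw material of phosphatidylinositol, the membrane lipid that phospholipase C splits into signalling molecules when receptors of the Gq class are active. Inositol phosphates released in this way are stripped of their phosphates step by step and returned to free inositol, and in the brain, where uptake from blood is slow, this recycling is a main source. Lithium inhibits the enzymes of the last steps, the inositol monophosphatases and inositol polyphosphate phosphatase, and also the related nucleotide phosphatase encoded by Bpnt1. Of the 10 genes, 4 encode these directly inhibited phosphatases (Impa1, Impa2, Inpp1 and Bpnt1). The other 6 make or import inositol (Isyna1, Slc5a3), join it to lipid (Cdipt) or add phosphates to inositol phosphates (Ip6k1, Itpk1, Itpka). The libraries measured RNA, and enzyme activity and inositol itself were not measured.

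Promoters are shown for the 5 members on which the results below turn and for which RefSeq (GRCm38.p6) gave an entry, and 7 of the 10 members had one. Each sequence runs in the direction of transcription, from 250 bases before to 50 bases after the annotated start. Capitals mark matches, on either strand, to any of 6 motifs: the TATA box (TATAAA), the CCAAT box (CCAAT), the GC box (GGGCGG), the cAMP response element (TGACGTCA), the E-box (CACGTG) and the EGR motif (GCGGGGGCG). Isyna1 lies at chr8:70594231-70594530 (plus strand), Slc5a3 at chr16:92058072-92058371 (plus), Ip6k1 at chr9:108002398-108002697 (plus), Itpk1 at chr12:102704820-102705119 (minus) and Itpka at chr2:119742087-119742386 (plus).
Isyna1: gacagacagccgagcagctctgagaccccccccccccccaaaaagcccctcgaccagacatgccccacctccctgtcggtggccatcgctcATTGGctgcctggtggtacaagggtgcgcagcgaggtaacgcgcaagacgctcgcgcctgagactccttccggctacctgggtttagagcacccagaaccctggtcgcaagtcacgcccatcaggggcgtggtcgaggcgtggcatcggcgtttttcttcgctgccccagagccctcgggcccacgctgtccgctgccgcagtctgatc
Slc5a3: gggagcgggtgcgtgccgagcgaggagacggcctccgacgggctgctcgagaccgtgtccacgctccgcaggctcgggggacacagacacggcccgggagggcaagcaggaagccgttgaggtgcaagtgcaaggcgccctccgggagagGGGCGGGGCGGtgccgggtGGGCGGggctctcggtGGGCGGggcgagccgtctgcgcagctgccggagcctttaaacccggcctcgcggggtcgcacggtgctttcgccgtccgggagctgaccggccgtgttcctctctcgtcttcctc
Ip6k1: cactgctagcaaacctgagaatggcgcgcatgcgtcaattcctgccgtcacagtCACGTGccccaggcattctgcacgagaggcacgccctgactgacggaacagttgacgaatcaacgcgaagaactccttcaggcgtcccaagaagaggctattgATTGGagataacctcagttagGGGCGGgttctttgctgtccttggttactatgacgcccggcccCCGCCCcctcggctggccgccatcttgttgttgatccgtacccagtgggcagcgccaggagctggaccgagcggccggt
Itpk1: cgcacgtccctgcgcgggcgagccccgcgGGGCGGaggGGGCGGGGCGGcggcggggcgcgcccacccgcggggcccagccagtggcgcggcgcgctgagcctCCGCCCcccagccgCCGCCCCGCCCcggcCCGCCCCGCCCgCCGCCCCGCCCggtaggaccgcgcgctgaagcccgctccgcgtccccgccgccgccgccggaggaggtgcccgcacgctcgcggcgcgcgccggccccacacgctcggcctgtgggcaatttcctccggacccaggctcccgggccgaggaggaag
Itpka: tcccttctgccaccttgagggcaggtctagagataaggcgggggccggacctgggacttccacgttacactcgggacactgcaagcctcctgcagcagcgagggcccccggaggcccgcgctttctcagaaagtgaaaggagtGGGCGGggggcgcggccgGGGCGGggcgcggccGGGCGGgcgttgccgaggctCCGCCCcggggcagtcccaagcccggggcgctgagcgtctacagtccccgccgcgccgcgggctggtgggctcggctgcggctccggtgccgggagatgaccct
The Itpk1 window had 10 GC boxes, several of them overlapping, against 4 in Slc5a3, 4 in Itpka, 2 in Ip6k1 and 0 in Isyna1, where 35.7% of 32851 mouse promoter windows of the same length held at least 1. A CCAAT box was found once each in Isyna1 and Ip6k1, beside 37.4% of all windows, and an E-box once in Ip6k1, beside 7.15%. The TATA box (13.6% of all windows), the cAMP response element (1.79%) and the EGR motif (2.91%) were in none of the 5. These matches describe the letters of the windows only.

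Levels are normalised counts, that is, counts divided by the size factor of the library, and changes are given as log2 fold changes of the value plus 1, each with ± its standard error. A gene is called where limma's Benjamini-Hochberg adjusted p, taken over all 17901 genes, is below 0.05. The libraries held 24391022 to 33842466 counts, so that even Impa2, the lowest member, had at least 95 counts in every library. All 8 markers of cortical projection neurons were above 0 in every library, but so were all 8 of striatum, all 5 of blood and all 14 of the olfactory bulb, which adjoins the frontal pole, so that detection alone is no check of the prefrontal label. The summed level of the 14 bulb markers ran from 3724 to 65564 normalised counts. Their mean over the list, as a log2 deviation from the average library, ran from -2.48 to 2.22. In bulk tissue, fewer cells of a type and less RNA per cell cannot be told apart. Dyrk1a itself was higher in Het than in WT mice over all treatments, with a mean of 2422 ± 393 normalised counts in 30 Het mice, against 2195 ± 57.4 in 29 WT mice (SD), at 0.13 ± 0.03 on the log2 scale (limma adjusted p = 0.00768). The value was 0.06 ± 0.05 under vehicle (limma adjusted p = 0.451), 0.09 ± 0.05 under lithium (0.311) and 0.23 ± 0.05 under fluoxetine (0.113). Without Het fluoxetine males 3 and 4 it was 0.09 over all treatments (limma adjusted p = 0.00029) and 0.11 under fluoxetine (0.501). A level per gene cannot separate the mutant transcript from the normal one, so Dyrk1a RNA does not check the genotype labels here.

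Some libraries stood apart from the others. Het fluoxetine males 3 and 4 scored -109 and -68.1 on the second principal component, where the next lowest library scored -8.71. The same pair had striatal marker means of 0.81 and 0.80, and Het fluoxetine male 5 had 0.70. Het vehicle males 3 and 4 had the 2 highest olfactory bulb means, 2.19 and 2.22, and projection neuron means of -1.21 and -1.04. Calls and correlations that rest on either pair are given with and without it.

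Per kilobase of annotated exon, Itpka had the highest level of the 10 genes, 1904 ± 379 normalised counts (SD, n = 59 libraries), followed by Cdipt at 1229 ± 93.9 and Ip6k1 at 975 ± 79.1. Bpnt1 stood at 677 ± 29.5 per kilobase, Itpk1 at 482 ± 166, Impa1 at 357 ± 20.2 and Isyna1 at 273 ± 32.5. Inpp1, Slc5a3 and Impa2 were lowest per kilobase, at 140 ± 6.08, 68.5 ± 11.7 and 25.7 ± 3.40. The ranges over libraries separated Ip6k1 from Bpnt1, Isyna1 from Inpp1 and Slc5a3 from Impa2, and overlapped for the other 6 neighbouring pairs in this order. Within libraries the order was steadier: Itpka exceeded Cdipt in 57 of 59 libraries, Cdipt exceeded Ip6k1 in 54 and Isyna1 exceeded Inpp1 in 59. The lithium-inhibited phosphatases Inpp1 and Bpnt1 varied least, with a coefficient of variation over all libraries of 4.35% and 4.36%, against 17.1% for Slc5a3, 19.9% for Itpka and 34.3% for Itpk1. Without the 4 libraries that stood apart the coefficient was 12.9% for Slc5a3, 16.4% for Itpka and 5.53% for Itpk1, and the lowest were 3.15% for Inpp1, 3.98% for Impa1 and 4.23% for Bpnt1.

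None of the 10 genes was called between lithium and vehicle mice. Of all genes tested, 2.12% were called between lithium and vehicle over both genotypes, and 0 of the 10 members were, with a smallest limma adjusted p of 0.252. The members' median log2 fold change was 0.03, beside 0.00 over all genes, and the median size of change was 0.04, beside 0.05. The 95% confidence intervals of the fold change lay between 0.905 and 1.18 for every member. At an unadjusted p below 0.05 there were 2 members, Isyna1 and Ip6k1, and edgeR on the recovered counts also called 0. The separate comparisons in Het mice (0.497% of genes called) and in WT mice (0.162%) called 0 members each.

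The phosphatases that lithium inhibits were nearly level between lithium and vehicle mice. Impa1, the main inositol monophosphatase (chromosome 3, 10311956 to 10331439, minus strand, GRCm38), ran from 1804 through a median of 1963 to 2101 normalised counts in the 20 lithium mice, against 1774, 1928 and 2058 in 20 vehicle mice. These ranges overlapped almost completely, and the log2 fold change was 0.03 ± 0.02 (interval -0.02 to 0.07). Impa2, its paralogue (chromosome 18), ran from 104 through 143 to 181 in lithium mice and from 115 through 141 to 179 in vehicle mice. Its log2 fold change was -0.02 ± 0.06, and the interval, -0.14 to 0.10, was the widest of the 4 phosphatases. Impa1 shares 243 exonic bases (4.47%) with Gm38303 on the same strand, so that part of its level may belong to Gm38303. An antisense gene, B430212C06Rik, shares 1264 exonic bases (23.6%) with Impa2. A stranded kit, as used here, can tell antisense reads apart, but whether the counting used the strand was not checked.

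Inpp1 removes a phosphate from inositol bisphosphates and so feeds the monophosphatases (chromosome 1, 52785427 to 52817688, minus strand). It ran from 840 through 910 to 962 in lithium mice, against 877, 907 and 945 in vehicle mice, with a log2 fold change of -0.01 ± 0.02. Bpnt1, whose product dephosphorylates adenosine bisphosphate left over from sulfation (chromosome 1, 185332149 to 185357777, plus strand), ran from 1449 through 1574 to 1645 in lithium mice and from 1433 through 1550 to 1719 in vehicle mice. Its log2 fold change was 0.00 ± 0.02, with an interval of -0.04 to 0.05. All 4 phosphatases had overlapping groups and intervals that include 0, and the signs of Impa2, Inpp1 and Bpnt1 were not stable under other settings.

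**Figure D1:**
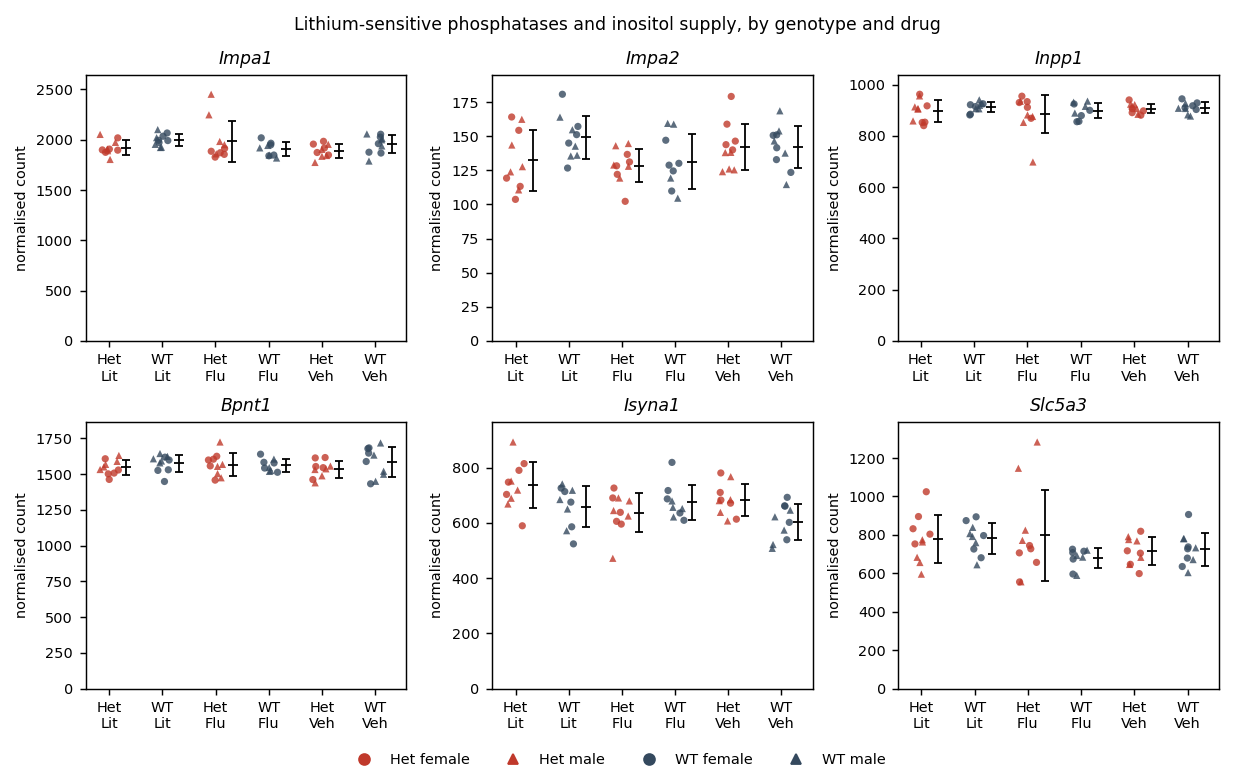
Normalised counts (linear axis from 0) of the 4 lithium-inhibited phosphatases and the 2 inositol supply genes in each of the 59 libraries, by genotype and drug (Lit lithium, Flu fluoxetine, Veh vehicle); circles are females, triangles are males, and the bar beside each group is its mean ± SD over 9 or 10 mice. Lithium and vehicle groups overlap for every gene, and the highest Slc5a3 values, 1284 and 1147, belong to Het fluoxetine males 3 and 4.

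The genes of inositol supply had the largest positive values among the members, short of a call. Isyna1 encodes inositol phosphate synthase, the enzyme that makes inositol from glucose phosphate (chromosome 8, 70594373 to 70597290, plus strand). It ran from 524 through a median of 709 to 893 normalised counts in lithium mice, against 508, 654 and 781 in vehicle mice. Its log2 fold change was 0.12 ± 0.05 (interval 0.02 to 0.21, unadjusted p = 0.0225, limma adjusted p = 0.259). The value was similar in both genotypes, at 0.10 ± 0.07 in Het and 0.13 ± 0.07 in WT mice, with a difference of -0.02 ± 0.10.

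Slc5a3 encodes the sodium-dependent inositol transporter, an osmotically regulated carrier (chromosome 16, 92058322 to 92087473, plus strand). It ran from 596 through 783 to 1025 in lithium mice, against 599, 722 and 906 in vehicle mice, with a log2 fold change of 0.11 ± 0.06 (interval -0.02 to 0.24, limma adjusted p = 0.46). Het lithium females held the highest lithium value and had 804, 896, 1025, 832 and 753, against 647, 819, 599, 717 and 705 in Het vehicle females. In Het lithium males the values were 683, 775, 763, 596 and 656, against 683, 791, 769, 776 and 646 in Het vehicle males. The Het female groups overlapped and the Het male groups overlapped, and over both genotypes the lithium effect in females minus that in males was 0.19 ± 0.13 (limma adjusted p = 0.517). With weights that reduce the part of variable libraries, Slc5a3 was the 1 member called for lithium, at 0.16 with a limma adjusted p of 0.0332, beside 1561 genes called in all. Slc5a3 shares its first 159 exonic bases (1.46%) with Mrps6, a mitochondrial ribosomal protein gene on the same strand, whose own lithium value was 0.06 ± 0.04 (limma adjusted p = 0.458).

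Cdipt encodes phosphatidylinositol synthase, which joins inositol to the lipid backbone (chromosome 7, 126975914 to 126980501, plus strand). It ran from 2847 through 3266 to 3609 in lithium mice, against 2561, 3253 and 3593 in vehicle mice, at 0.04 ± 0.03 on the log2 scale (limma adjusted p = 0.54). An antisense gene, Cdiptos, shares 169 exonic bases (6.52%) with it.

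Among the kinases, Ip6k1 makes inositol pyrophosphates from inositol hexakisphosphate (chromosome 9, 108002501 to 108048782, plus strand). It ran from 5368 through 6045 to 6852 normalised counts in lithium mice, against 5713, 6273 and 7638 in vehicle mice. The ranges overlapped, the log2 fold change was -0.07 ± 0.03 (interval -0.13 to -0.01), and the unadjusted p was 0.0212 with a limma adjusted p of 0.252. Het vehicle males 3 and 4 supplied the 2 highest vehicle values, 7396 and 7638, and without them the log2 fold change was -0.05 (limma adjusted p = 0.519). Itpk1, a kinase of several inositol phosphates (chromosome 12, 102568582 to 102704930, minus strand), and Itpka, the neuronal kinase of inositol trisphosphate that also binds actin in dendritic spines (chromosome 2, 119742337 to 119751263, plus strand), had lithium values of 0.04 ± 0.07 and 0.03 ± 0.09. The fit has 1 spread per gene over all 12 groups. The Itpk1 standard error therefore includes Het fluoxetine males 3 and 4, which are outside this comparison. Itpka turned to -0.08 without Het vehicle males 3 and 4. Ip6k1 shares 942 exonic bases (14.5%) with Gm20662 on the same strand.

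The lithium effect was also compared between genotypes and between sexes. For Het minus WT, limma called 0 genes of 17901 (497 at an unadjusted p below 0.05, and 0 by edgeR), and the members ran from -0.18 (Impa2) to 0.23 (Itpka). For females minus males it also called 0 genes (2198 at an unadjusted p below 0.05, and 0 by edgeR), and the members ran from -0.29 (Itpka) to 0.19 (Slc5a3). Cdipt had the smallest p among the members in the comparison of sexes, at -0.17 ± 0.06 (unadjusted p = 0.00378, limma adjusted p = 0.305). With array weights, which reduce the part of variable libraries, Cdipt was called in the comparison of sexes at -0.24 (limma adjusted p = 0.00127, beside 2710 genes in all), and without Het vehicle males 3 and 4 it stood at -0.13 (0.795).

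**Figure D2:**
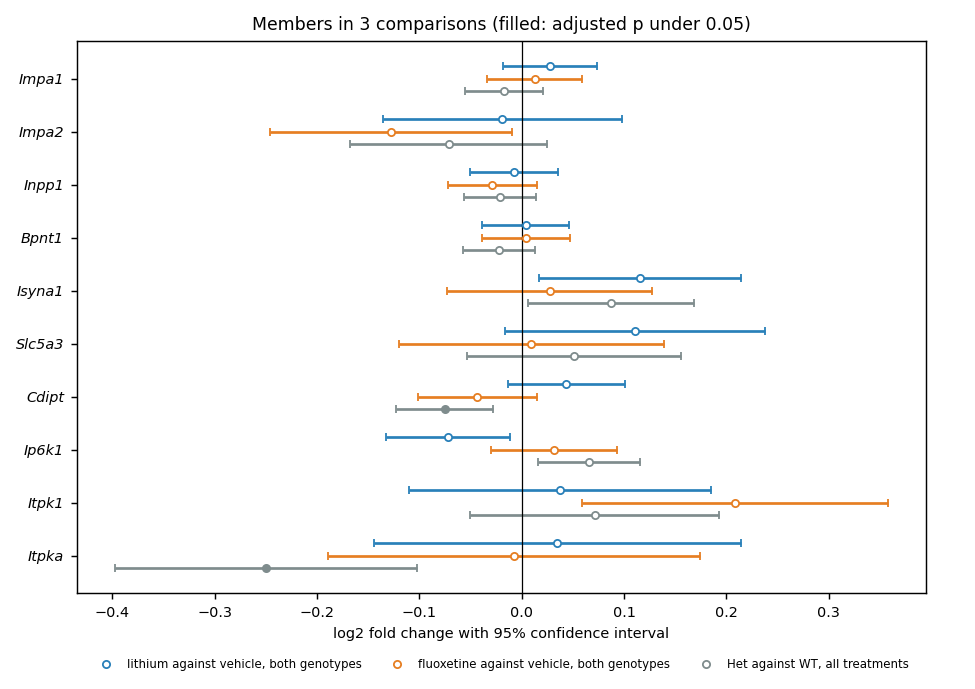
Log2 fold change (horizontal axis, point) with its 95% confidence interval (line) of each of the 10 genes (rows) for lithium against vehicle, fluoxetine against vehicle and Het against WT mice, from the limma fit of all 59 libraries. Filled points are called at an adjusted p below 0.05: these are Cdipt (-0.08) and Itpka (-0.25) between genotypes, and no lithium point is filled. The comparisons of both drugs share the vehicle mice.

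Between the drugs, Ip6k1 was the 1 member called, lower in lithium than in fluoxetine mice, where 6.58% of all genes were called. It ran from 5368 through 6045 to 6852 normalised counts in 20 lithium mice, against 6023, 6356 and 8005 in 19 fluoxetine mice, at -0.10 ± 0.03 on the log2 scale (limma adjusted p = 0.0338). The groups overlapped, and the highest fluoxetine values, 8005 and 7837, came from Het fluoxetine males 3 and 4. Without this pair the log2 fold change was -0.07 (limma adjusted p = 0.129), and with the olfactory bulb mean as a covariate it was also -0.07 (limma adjusted p = 0.0888). Leaving out a single library raised the adjusted p above 0.05 for 12 of 39 libraries (highest 0.0616): Het lithium females 1 and 2, Het lithium males 2 and 5, WT lithium female 3, WT lithium male 5, Het fluoxetine males 3 and 4, WT fluoxetine females 4 and 5, and WT fluoxetine males 2 and 4. Cdipt stood at 0.09 in the same comparison and was not called in the main limma fit. It was called in 6 of 13 alternatives, among them edgeR, DESeq2, and limma with a mean of at least 100 or with the compared groups alone. Leaving out a single library also brought a call of Cdipt for 6 of 39 libraries (limma adjusted p of 0.0226 to 0.0489).

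Fluoxetine, the serotonin reuptake inhibitor, served as the second drug. Against vehicle over both genotypes 3.09% of genes were called and 0 of the 10 members were. In WT mice 0 members were called too (0.447% of genes). Member values ran from -0.13 to 0.21 over both genotypes and from -0.12 to 0.16 in WT mice. In Het mice, where 4.27% of genes were called, Itpk1 was the 1 member called, at 0.37 ± 0.10 (limma adjusted p = 0.0311). Itpk1 had 1650, 1548, 5419, 3030 and 1666 normalised counts in Het fluoxetine males and 1470, 1448, 1464, 1624 and 1578 in Het fluoxetine females. Het vehicle males had 1489, 1372, 1304, 1367 and 1341, and Het vehicle females had 1552, 1409, 1560, 1592 and 1594. Replicates 3 and 4 of the Het fluoxetine males lay far above every other library in the series, the other 57 of which ran from 1304 to 1678.

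Without this pair the Itpk1 value in Het mice was 0.11 (limma adjusted p = 0.182). Leaving out only replicate 3 gave 0.22 (adjusted p = 0.0509 by limma), and only replicate 4 gave 0.33 (0.0902). Leaving out Het fluoxetine female 4 or 5, Het vehicle female 3 or Het vehicle male 3 also raised the adjusted p above 0.05, to between 0.0505 and 0.0559, with values of 0.36 to 0.37. A fit of the Het fluoxetine and vehicle groups alone gave 0.37 with a limma adjusted p of 0.393. The difference of the fluoxetine effect between Het and WT mice was 0.33 for Itpk1 (limma adjusted p = 0.19), and no gene was called in it (3917 at an unadjusted p below 0.05, and 0 by edgeR).

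The same pair of libraries was extreme for other members. Their Slc5a3 levels, 1284 and 1147, lay above the highest of the other 57 libraries, 1025, and their Impa1 levels, 2452 and 2248, above the highest of the others, 2101. Ip6k1 was also above all others in them, at 8005 and 7837 against at most 7638. Inpp1 was 698 in replicate 3, below the lowest of the other 57 libraries, 840, and 853 in replicate 4. Isyna1 was 472 in replicate 3, below the others' lowest of 508. Replicate 5, with a striatal mean of 0.70, had 1666 normalised counts of Itpk1, within the range of the others. The part of tissue composition or RNA quality in these 2 libraries was not tested.

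**Figure D3:**
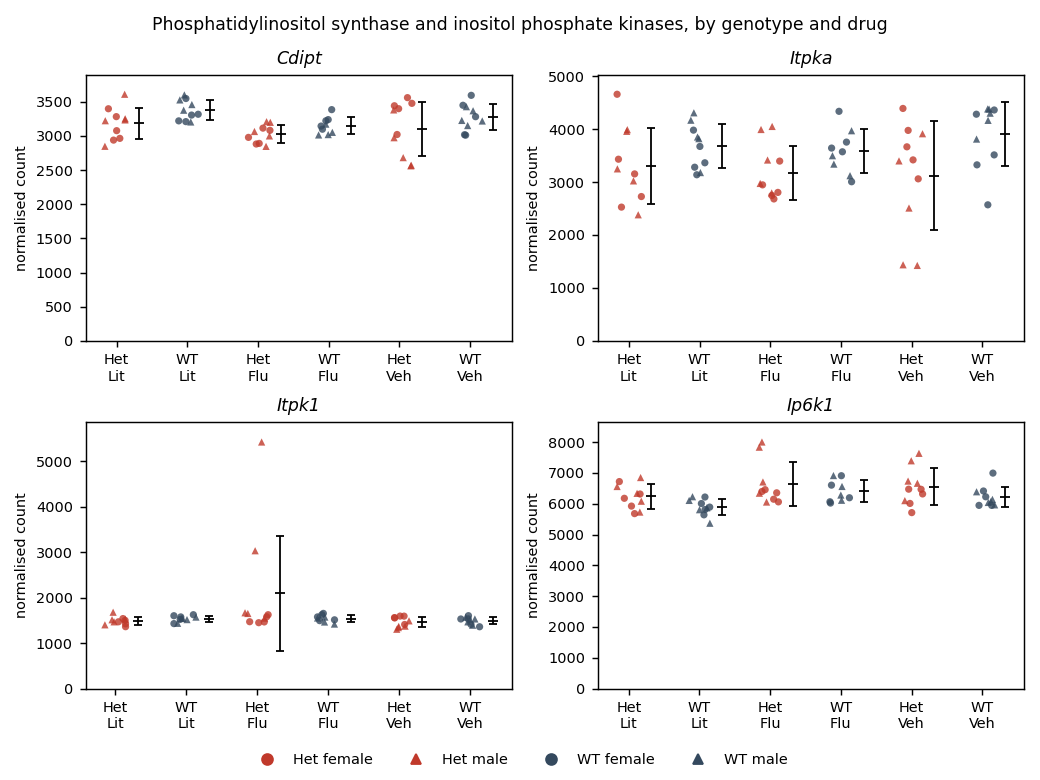
Normalised counts (linear axis from 0) of phosphatidylinositol synthase (Cdipt) and of the 3 kinases in each library, by genotype and drug (Lit lithium, Flu fluoxetine, Veh vehicle); circles are females, triangles are males, and bars are the mean ± SD over 9 or 10 mice. Itpk1 reaches 5419 and 3030 in Het fluoxetine males 3 and 4, and Itpka is at 1437 and 1425 in Het vehicle males 3 and 4.

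Between genotypes, 2 members were called over all treatments, Cdipt and Itpka, both lower in Het than in WT mice, where 21.4% of all genes were called. Itpka ran from 1425 through 3202 to 4659 normalised counts in 30 Het mice, against 2570, 3755 and 4382 in 29 WT mice, at -0.25 ± 0.07 on the log2 scale (limma adjusted p = 0.0176). Cdipt ran from 2561 through 3078 to 3609 in Het mice, against 3010, 3226 and 3599 in WT mice, at -0.08 ± 0.02 (limma adjusted p = 0.0224). Both pairs of groups overlapped over most of their range. A share of 2 in 10 is close to the share of all genes called. Ip6k1 stood at 0.07 ± 0.02 (limma adjusted p = 0.0511), and Isyna1 at 0.09 ± 0.04 (0.111).

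Under vehicle alone, 13.1% of genes were called and Itpka was the 1 member among them, at -0.40 ± 0.13 (limma adjusted p = 0.0362). Itpka had 3913, 3400, 1437, 1425 and 2509 in Het vehicle males, against 4380, 4382, 4166, 4301 and 3812 in WT vehicle males. In females the values were 4391, 3061, 3666, 3976 and 3419 in Het vehicle mice, against 3325, 3513, 4282, 2570 and 4362 in WT vehicle mice. Among males 1 Het value, 3913, reached the range of the WT mice, and the female groups overlapped throughout. The Het effect in females minus that in males was 0.90 ± 0.25 for Itpka (limma adjusted p = 0.0185) and 0.27 ± 0.08 for Cdipt (limma adjusted p = 0.0241), the 2 members among the 16% of genes called in that comparison. Cdipt had 3380, 2973, 2561, 2570 and 2681 in Het vehicle males, against 3151, 3427, 3217, 3226 and 3367 in WT vehicle males. Het vehicle females had 3476, 3020, 3441, 3559 and 3398 of Cdipt, against 3016, 3280, 3447, 3010 and 3593 in WT vehicle females.

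Het vehicle males 3 and 4, the libraries with the highest olfactory bulb means, held the lowest Itpka and Cdipt values of all 59 libraries. The summed level of the 14 olfactory bulb markers ran from 13246 to 65564 in Het vehicle males, against 4173 to 9116 in WT vehicle males, and these groups did not overlap. In females it ran from 4031 to 32079 in Het vehicle mice, against 4913 to 38761 in WT vehicle mice. Without Het vehicle males 3 and 4, Itpka stood at -0.17 under vehicle (limma adjusted p = 0.526) and at -0.17 over all treatments (0.0666), and Cdipt at -0.06 over all treatments (0.0849). With the olfactory bulb mean as a covariate, Itpka stood at -0.15 under vehicle (limma adjusted p = 0.813) and -0.14 over all treatments (0.174), and Cdipt at -0.04 over all treatments (0.216). The female minus male difference of the Het effect was then 0.37 for Itpka and 0.09 for Cdipt (limma adjusted p = 0.987 each), and without the 2 males it was 0.44 (0.398) and 0.18 (0.381).

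Single libraries also decided the calls under vehicle, and the share of all genes called moved with them. Het against WT under vehicle called 2353 genes with all libraries, 29 without Het vehicle male 3 and 33 without Het vehicle male 4. Without Het vehicle male 1 it called 5058. The female minus male difference called 2857 genes with all libraries, 0 without either Het vehicle male 3 or 4, and 7 without WT vehicle female 4. Without Het vehicle male 1 that difference called 4961. For Itpka, Het against WT, the limma adjusted p rose above 0.05 (highest 0.125, values -0.40 to -0.31) on leaving out Het vehicle females 2, 3 or 5, Het vehicle males 3 or 4, WT vehicle females 2, 3 or 5, or WT vehicle male 2. For the female minus male difference of Itpka this held for Het vehicle males 3 and 4 and WT vehicle female 4 (values 0.73 to 0.79, adjusted p up to 0.0734). For that of Cdipt it held for Het vehicle females 1 and 4, Het vehicle males 3 and 4, and WT vehicle females 1 and 4 (values 0.23 to 0.26, adjusted p up to 0.0811). Fits of the 4 vehicle groups alone gave limma adjusted p of 0.107 for Itpka between genotypes, and of 0.0797 and 0.0875 for the female minus male differences of Itpka and Cdipt. With edgeR, Itpka between genotypes under vehicle had an adjusted p of 0.0534.

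Between genotypes, 0 members were called within lithium mice and 0 within fluoxetine mice, where 2 genes of 17901 (0.0112%) were called each time. Itpka stood at -0.17 ± 0.13 under lithium and -0.18 ± 0.13 under fluoxetine. The 10 members ran from -0.18 to 0.16 under lithium and from -0.18 to 0.29 under fluoxetine. At an unadjusted limma p below 0.05 there were 3 members under lithium and 2 under fluoxetine. Females and males over all groups differed in 0 members, beside 0.156% of genes, with member values between -0.07 and 0.04.

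Over all 59 libraries, the levels of 7 of the 10 members were correlated with the olfactory bulb mean at an adjusted p below 0.05, and so were those of 60.6% of all 17901 genes (permutation test, Benjamini-Hochberg adjustment over all genes). The members' share is thus near that of all genes, and their median size of r, 0.39, stood beside 0.36 over all genes. Itpka had r = -0.70 (rho = -0.80), Cdipt r = -0.69 (rho = -0.74) and Impa1 r = -0.58 (rho = -0.64), each with the smallest permutation p that 100000 resamples can give, 1e-05 (adjusted 3.33e-05). An r at least as large in size was found for 13.5% of all genes in the case of Itpka and for 14.4% in that of Cdipt. Ip6k1 ran the other way, at r = 0.45 (rho = 0.65), as did Isyna1, at r = 0.46 (rho = 0.45), with adjusted permutation p of 0.000723 and 0.000745 for r. Itpk1 had r = -0.34 (rho = -0.53) and Impa2 r = -0.32 (rho = -0.36), with adjusted permutation p of 0.00363 and 0.0241. Inpp1 (r = 0.15), Bpnt1 (r = -0.16) and Slc5a3 (r = -0.10) did not pass. Within the 12 groups r was -0.64 for Itpka, -0.68 for Cdipt, -0.52 for Impa1, 0.44 for Ip6k1, 0.44 for Isyna1, -0.38 for Itpk1 and -0.16 for Impa2.

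These correlations did not rest on the libraries that stood apart. Without Het vehicle males 3 and 4, r was -0.72 for Itpka, -0.66 for Cdipt, -0.56 for Impa1, 0.37 for Ip6k1, 0.44 for Isyna1, -0.31 for Itpk1 and -0.32 for Impa2, and 55.2% of all genes passed. Without Het fluoxetine males 3 and 4 as well, r was -0.77 for Itpka, -0.76 for Cdipt, -0.59 for Impa1, 0.67 for Ip6k1, 0.42 for Isyna1, -0.43 for Itpk1 and -0.31 for Impa2, and 60.8% of all genes passed. The 2 libraries farthest from the median bulb mean of 0.47 were Het lithium female 1 (-2.48) and WT lithium male 2 (-2.46), at the low end. Leaving out only these gave -0.69 for Itpka, -0.67 for Cdipt, -0.63 for Impa1, 0.42 for Ip6k1, 0.54 for Isyna1, -0.37 for Itpk1 and -0.38 for Impa2. All 7 correlations passed the test under each of these omissions. The bulb mean and the members share the libraries and their size factors.

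**Figure D4:**
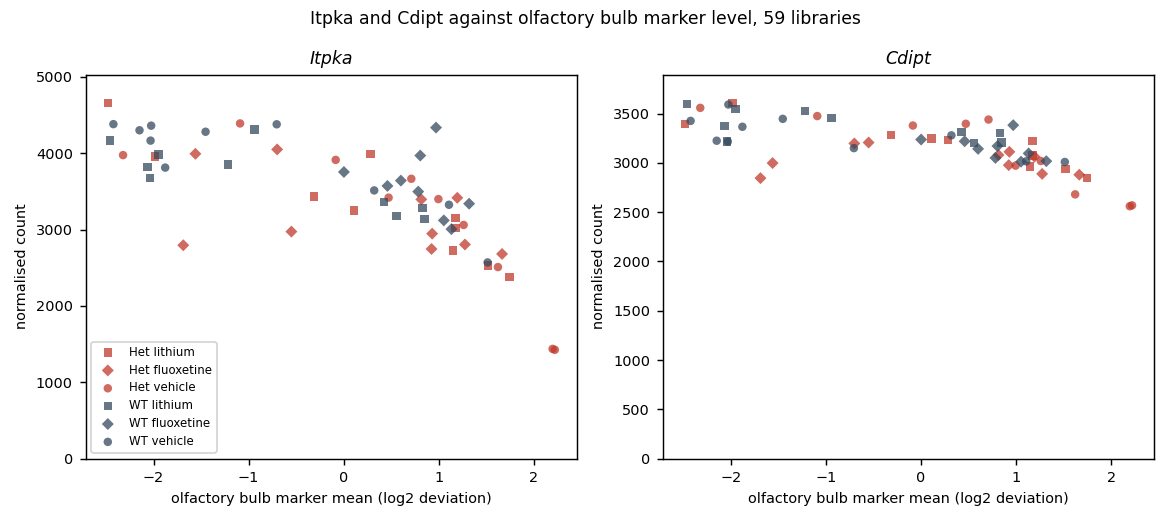
Itpka and Cdipt (normalised counts, linear axis from 0) against the mean of 14 olfactory bulb markers (log2 deviation from the average library) in the 59 libraries; red is Het, dark blue is WT, squares are lithium, diamonds are fluoxetine and circles are vehicle. Both genes are lower where the bulb markers are higher (r = -0.70 and -0.69), and the 2 points at the lower right are Het vehicle males 3 and 4, without which r is -0.72 and -0.66.

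Members were then compared with each other over the 59 libraries after the 12 group means were subtracted, as a description. Cdipt and Itpka varied together (r = 0.82, and 0.80 without Het vehicle males 3 and 4). Impa1 and Itpk1 had r = 0.75, which was 0.53 without Het fluoxetine males 3 and 4, and Impa1 and Slc5a3 had r = 0.53, which was 0.21 without them. Inpp1 and Itpk1 had r = -0.66 with this pair of libraries and -0.05 without it. Slc5a3 and Itpk1 had r = 0.50 with the pair and -0.26 without it, so that these correlations of Itpk1 and Slc5a3 rest on the pair. Other members were more alike without the pair. Cdipt and Itpk1 had r = 0.08 with it and 0.76 without it, and Itpk1 and Itpka had 0.20 and 0.52. Impa1 and Cdipt had 0.26 and 0.51, and Isyna1 and Ip6k1 had 0.29 and 0.60. Cdipt and Ip6k1 varied in opposite directions (r = -0.56, and -0.47 without all 4 libraries that stood apart), as did Impa1 and Isyna1 (r = -0.53, and -0.41 without all 4).

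The genes most like each member were sought among 12581 genes with a mean of at least 100, and the second value given for each is r without the 4 libraries that stood apart. Itpka was most like Stx1a (0.99 and 0.98), Dgkz (0.96 and 0.96) and Dab2ip (0.96 and 0.94). Cdipt was most like Faim2 (0.93 and 0.91), Arhgdia (0.92 and 0.91) and Flot2 (0.92 and 0.91). Itpk1 was most like St6galnac4 (0.98 and 0.74), Abr (0.97 and 0.69) and Ipo5 (0.97 and 0.67), and these likenesses were weaker without the 4 libraries. Impa1 was most like Degs1 (0.87 and 0.80), Ociad2 (0.86 and 0.77) and Slk (0.85 and 0.71). Ip6k1 was most like Podxl2 (0.85 and 0.76), Kcnh2 (0.84 and 0.80) and Trim28 (0.84 and 0.78). Inpp1 was most like Txndc16 (0.84 and 0.70), Clvs2 (0.81 and 0.54) and Mgat4c (0.80 and 0.64), and Slc5a3 most like Mkln1 (0.77 and 0.63), Inhba (0.76 and 0.57) and Smarca5 (0.76 and 0.64). Isyna1 was most like Gnai2 (0.76 and 0.70), Metrn (0.72 and 0.67) and Slc9a3r2 (0.71 and 0.71). Impa2 was most like Cplx1 (0.71 and 0.75), Srd5a1 (0.70 and 0.71) and Galnt14 (0.67 and 0.70), and Bpnt1 most like Atp5a1 (0.70 and 0.67), Bace1 (0.67 and 0.60) and Kbtbd4 (0.65 and 0.61).

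A wider list of 77 other genes of the phosphoinositide cycle, such as lipid kinases, phospholipases C, inositol trisphosphate receptors and inositol phosphate phosphatases, had 76 genes in the table, all tested. Lithium against vehicle called 2 of the 76 as higher and 0 as lower (2.63%, beside 2.12% of all genes), and called 0 in Het and 0 in WT mice alone. The median log2 fold change of the list was 0.00, as over all genes. Ppip5k1, which adds a further phosphate to make inositol pyrophosphates, rose to a mean of 3693 ± 141 normalised counts in lithium mice, against 3469 ± 257 in vehicle mice (SD, n = 20 each), at 0.09 ± 0.02 (limma adjusted p = 0.0192). Inpp5d, the lipid phosphatase SHIP1 of blood cells and microglia, rose to 433 ± 49.2 in lithium mice, against 382 ± 53.2 in vehicle mice, at 0.19 ± 0.05 (limma adjusted p = 0.0327). Against the same vehicle mice Inpp5d was also called under fluoxetine, at 429 ± 34.8 in 19 mice and 0.18 ± 0.05 on the log2 scale (limma adjusted p = 0.0417), and without Het vehicle males 3 and 4 this was 0.13 (0.0817). The 5 blood markers (Hba-a1, Hba-a2, Hbb-bs, Hbb-bt and Alas2) are genes of red cells, and the list holds no marker of white cells. Their summed level ran from 8171 through a median of 12555 to 29275 in lithium mice, from 6171 through 7324 to 21408 in fluoxetine mice and from 2677 through 8652 to 18562 in vehicle mice, and none was at 0 in any library. For the 6 microglial markers the medians were 6246 in lithium, 6213 in fluoxetine and 6333 in vehicle mice. The part of blood in the Inpp5d level was not tested. For lithium, without Het vehicle males 3 and 4 neither passed, at 0.08 for Ppip5k1 (limma adjusted p = 0.0601) and 0.14 for Inpp5d (0.133). The call of Inpp5d was also lost on leaving out any of 11 single libraries of 40, with a limma adjusted p above 0.05 (highest 0.0613). These were Het lithium females 1 and 2, Het lithium male 5, WT lithium females 3 and 4, WT lithium male 2, Het vehicle female 2, Het vehicle males 3 and 4, WT vehicle female 4 and WT vehicle male 5.

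Between lithium and fluoxetine, 4 of the 76 were called as higher and 1 as lower (6.58%, the same share as of all genes). Pitpnc1, a phosphatidylinositol transfer protein, was higher in lithium mice, at 1819 ± 163 normalised counts (n = 20), than in fluoxetine mice, at 1616 ± 163 (SD, n = 19), by 0.18 ± 0.04 on the log2 scale (limma adjusted p = 0.0107), and vehicle mice had 1703 ± 225. Ppip5k1 was higher in lithium than in fluoxetine mice by 0.10 ± 0.02 (limma adjusted p = 0.00741), and these 2 calls held in the 13 alternatives run and with each of 39 libraries left out. Pip4k2a, a lipid kinase, and Nudt4, a pyrophosphate hydrolase, were each higher in lithium than in fluoxetine mice by 0.13 ± 0.04 (limma adjusted p = 0.0339 and 0.0368). Against vehicle, lithium gave 0.01 ± 0.04 and 0.00 ± 0.04, and the fluoxetine mice had the lowest means. Pip4k2a averaged 2286 ± 167 in lithium, 2089 ± 208 in fluoxetine and 2265 ± 201 in vehicle mice (SD), and Nudt4 averaged 5677 ± 432 in lithium, 5186 ± 578 in fluoxetine and 5697 ± 486 in vehicle mice. Against vehicle, Nudt4 was called as lower under fluoxetine, at -0.14 ± 0.04 (limma adjusted p = 0.0465, and 0.114 at -0.10 without Het fluoxetine males 3 and 4). Pip4k2a was not called, at -0.12 ± 0.04 (limma adjusted p = 0.0813, and 0.300 at -0.07 without the same 2 males). Inpp5f, a lipid phosphatase, was lower in lithium than in fluoxetine mice, at -0.14 ± 0.04 (limma adjusted p = 0.0476). Its means were 2643 ± 223 in lithium, 2907 ± 184 in fluoxetine and 2913 ± 572 in vehicle mice, and its medians 2675, 2835 and 2717. Lithium against vehicle gave -0.12 ± 0.04 for Inpp5f (limma adjusted p = 0.143), and fluoxetine against vehicle 0.02 ± 0.04 (0.89). Without Het vehicle males 3 and 4 these 2 values were -0.07 (limma adjusted p = 0.457) and 0.07 (0.186). Between lithium and fluoxetine, without Het fluoxetine males 3 and 4 the values were 0.09 for Pip4k2a, 0.10 for Nudt4 and -0.13 for Inpp5f, with limma adjusted p of 0.133, 0.0986 and 0.11. Leaving out a single library ended the call for 9 of 39 libraries for Pip4k2a, 14 of 39 for Nudt4 and 27 of 39 for Inpp5f. Over all treatments 8 of the 76 were higher and 20 lower in Het than in WT mice (36.8%, beside 21.4% of all genes), and under vehicle 5 were higher and 8 lower (17.1%, beside 13.1%). With the olfactory bulb mean as a covariate, 134 genes of the whole table were called over all treatments and 0 under vehicle. Without Het vehicle male 3 alone, 29 genes of the whole table were called under vehicle.

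Of 7 other lithium-sensitive enzymes 5 were tested, and lithium called 0 of the 5, with log2 fold changes between -0.06 and 0.02. These 5 comprise Gsk3a and Gsk3b, the kinases that are the other well-known lithium targets, and Impad1, Pgm1 and Pgm2. Of 6 osmolyte genes, which cells use to balance hypertonicity, lithium against vehicle also called 0, with values between 0.00 and 0.10. Hspa4l, an osmotic stress chaperone, averaged 5237 ± 467 in lithium, 4737 ± 485 in fluoxetine and 5215 ± 515 in vehicle mice (SD), and lithium against vehicle gave 0.01 ± 0.04. It was called as higher in lithium than in fluoxetine mice, at 0.15 ± 0.04 (limma adjusted p = 0.0251), and as lower in fluoxetine than in vehicle mice, at -0.14 ± 0.04 (0.0474). Without Het fluoxetine males 3 and 4 these were 0.10 (limma adjusted p = 0.0986) and -0.10 (0.177).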

How the data were processed

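RNA was measured in 59 prefrontal cortex libraries prepared with a stranded poly(A) kit, per the labels' protocols. The tools listed in the submitters' processing notes are DESeq2 1.19.11, Salmon 0.11.2 and R 3.6.0, the build is GRCm38, and no role is given for any tool. The authors deposited 1 table of a signal per gene and library, which the values show to be counts divided by a size factor. The smallest step of each library turned 100% of values into whole reads (tolerance 0.01 counts), though in 3 libraries that step was too near 1 to show this by itself. The totals ran from 24391022 to 33842466 counts (median 27601196). No column lacked a sample.

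The scale of analysis was log2(value + 1), on which changes of low genes are understated, after a filter (10 or more normalised counts in 4 or more libraries) that kept 17901 genes. limma 3.58.1 (R 4.3.3, trend on the mean) was fitted to all libraries with 12 group means and 47 residual degrees of freedom. Contrasts weight both sexes equally, and Benjamini-Hochberg adjustment was made separately for 16 comparisons. Members were read from that fit, which was tested on simulated data. Correlations with the bulb mean were tested over all genes with 100000 permutations, and values without the libraries that stood apart were chosen after seeing the data. Alternatives were other pseudocounts, filters and scalings, array weights, marker covariates, left-out libraries, edgeR 4.0.16 and DESeq2 1.42.0 on the recovered counts. Replicate libraries all differed by more than sampling noise (chi-square per gene of 3.05 or more over 116 pairs). Gene symbols were matched by identifier (18077 of 18088), and exon lengths and overlaps from GENCODE annotation of GRCm38, which may differ from the annotation behind the counts.

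The members and the lists were chosen with earlier results of these data known. All 10 members were tested in every comparison, and their single values are given only for some comparisons. Wider-list genes were named where called in a lithium comparison, at most 6 for each, and 3 most similar genes were named for each member.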

Additional observations from a re-analysis of the deposited data

Results flagged for a closer look

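Among 120 tests of 1 gene in 1 group for a library far from its group (Dixon's test), 2 stood out. This is a smaller share than chance gives, about 1 in 20. The test looks for 1 library at a time, and it did not flag Itpk1 at 5419 and 3030 in Het fluoxetine males 3 and 4. Impa1 had 2019 normalised counts in Het lithium female 2, and the other 4 Het lithium females had 1875 to 1907. Itpk1 had 1409 in Het vehicle female 2, and the other 4 Het vehicle females had 1552 to 1594.

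The Het effect under vehicle differed between the sexes for 2 members, by a limma test of the difference: females minus males gave 0.27 for Cdipt and 0.90 for Itpka. The summed olfactory bulb markers ran from 13246 to 65564 in Het vehicle males, against 4173 to 9116 in WT vehicle males, and both differences were smaller without Het vehicle males 3 and 4 or with the bulb mean as a covariate. The part of bulb tissue in them was not tested.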

How the results depend on the processing

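Under array weights the number of members called was 1 for lithium over both genotypes (Slc5a3), 1 for the lithium effect in females minus males (Cdipt), 1 for fluoxetine in WT mice, 2 for the fluoxetine effect in Het minus WT mice, 5 for Het against WT under vehicle, 3 under lithium and 5 over all treatments, and 4 for the Het effect under vehicle in females minus males. Lithium against fluoxetine called 2 members (Cdipt and Ip6k1) with a mean of at least 100, with the compared groups alone and with edgeR, 3 with DESeq2 and 0 with astrocyte and oligodendrocyte covariates. Fluoxetine over both genotypes called 1 (Itpk1) with DESeq2 and 1 with the bulb covariate. Fluoxetine in Het mice called 0 with the glial covariates, without the 2 Het fluoxetine males, without the 2 Het vehicle males (an alternative chosen after seeing the data) and with the compared groups alone. Het against WT under vehicle called 0 with the bulb covariate, the glial covariates, the compared groups alone, edgeR, and without the 2 Het vehicle males, and 2 (Isyna1 and Itpka) without the 2 Het fluoxetine males. Het against WT over all treatments called 0 with either kind of covariate and without the 2 Het vehicle males, and the female minus male difference called 0 with the bulb covariate, the compared groups alone and without those males.

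Leaving out 1 library at a time, members called ran from 0 to 2 for lithium against fluoxetine, 0 to 1 for fluoxetine over both genotypes and in Het mice, 0 to 3 for Het against WT under vehicle, 0 to 1 under fluoxetine and 2 to 3 over all treatments, and 0 to 3 for the female minus male difference; the other comparisons stayed at 0. Signs reversed for lithium over both genotypes in values near 0: Impa2 at 0.0277 and Inpp1 at 0.0052 with glial covariates, and Bpnt1 at -0.0014 with quantile normalization and -0.0048 with array weights. The sign of Itpka also reversed, to -0.0821 without the 2 Het vehicle males, which is larger in size than the other reversed values. Single libraries moved Bpnt1 between -0.0064 and 0.0123, Impa2 between -0.0405 and 0.0005 and Itpka between -0.0093 and 0.0817. Correlations with the bulb mean reversed for Slc5a3, to 0.0368 without the 2 Het fluoxetine males and 0.0086 without both pairs of Het males, and for Inpp1, to -0.0037 without both pairs. The cause of these changes was not tested.

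No label says that a replicate number pairs mice. The 39 same-numbered pairs had correlations of -0.59 to 0.34, with 10 over 0.1. Differently numbered pairs were not compared, so these values cannot show whether the numbers pair mice. With the replicate block Het against WT over all treatments called 3 members, adding Ip6k1 at 0.07 (limma adjusted p = 0.0391), and other member counts did not change. Comparisons that use all groups have no separate fit of the compared groups alone. Depth limits Impa2 most, with 95 to 206 counts per library.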
